A study of Caenorhabditis elegans with 46 samples.

Results

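The microRNAs of whole Caenorhabditis elegans larvae of the first larval stage (L1) were followed in the 23 libraries, of 46 in the series, that had not been oxidised. Oxidation with sodium periodate destroys the free end of a small RNA, and the other 23 libraries had been through it. The untreated libraries give the microRNAs without that step, and they allow worms without henn-1, which encodes the methyltransferase that worms use on small RNAs, to be set against worms that have it. All of the libraries labelled as not treated were taken. A null allele of henn-1, written henn-1(0), was carried by 17 of them, and henn-1 was present in 6.

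The 6 libraries with henn-1 came from wild type N2 worms, which carry no transgene (libraries 32793 and 34092), from myo-3:Ath-HEN1 worms (strains MLC889 and MLC890, libraries 49401 and 49403) and from ASE:Ath-HEN1 worms (MLC702 and MLC703, libraries 40634 and 40636). The 17 henn-1(0) libraries all came from worms that also carried Ath-HEN1, a plant enzyme that methylates microRNAs. Its drivers were rps-5, a gene of a ribosomal protein (MLC558 in libraries 36208 and 42751, MLC557 in 42745), the nervous system genes rab-3 (MLC450, MLC451), unc-31 (MLC530, MLC531) and rgef-1 (MLC664, MLC665), elt-2 for the intestine (MLC559, MLC631), myo-2 for pharyngeal muscle (MLC528, MLC529), myo-3 for body wall muscle (MLC900 and MLC901, libraries 49405 and 49407) and ASE for a pair of sensory neurons (MLC749 and MLC750, libraries 42747 and 42749). Thus 2 drivers, myo-3 and ASE, were studied both ways, whereas no henn-1(0) worms lacked the plant enzyme. The labels give the same line numbers (5 and 9) to the ASE strains with and without henn-1, and related ones (2 and 11 with henn-1, 2.2 and 11.16 without) to the myo-3 strains. Whether strains with and without henn-1 share a transgenic line is not stated in them. Libraries are named by the number in their label, whose meaning the labels do not state. In these small RNA libraries henn-1 mRNA was not measured.

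In animals a microRNA is cut from a hairpin precursor, and 1 strand of the resulting duplex, from the 5p or the 3p arm, is usually kept in an Argonaute protein that represses matching mRNAs. Most animal microRNAs end in an unmodified sugar. HENN-1 adds a methyl group to the ends of other small RNAs, chiefly the piRNAs, which in this worm act in the germ line and derive largely from clusters on chromosome IV. Unmethylated piRNAs are prone to trimming and tailing. A difference in untreated microRNAs between worms with and without henn-1 is therefore a different quantity from survival of oxidation.

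The untreated libraries held 10674772 to 43302426 counts on worm microRNA arms. Replicates of a genotype correlated at 0.985 to 0.997 (Pearson, log scale, across arms, which are not independent replicates), and their differences exceeded counting error. The wild type libraries and the ASE libraries with henn-1 were among the deepest, at 36069836 to 43302426 counts, and the myo-3 libraries with henn-1 held 13751603 and 14939064. Levels below are CPM, the counts of an arm per 1000000 worm microRNA counts of its library, or the percentage of those counts. A bulk level cannot tell fewer cells of a type from less RNA per cell.

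A few arms dominated the L1 profile. miR-52-5p held 18.5% ± 2.38 of all counts (SD, n = 23 libraries), from 14.5% to 23.5%. Its hairpin lies at IV:14034008-14034107 on the plus strand of WBcel235. It belongs to the miR-51 family, related to miR-100 of other animals and needed in worm embryos. miR-58a-3p followed at 9.86% ± 1.40, from 7.56% to 12.0%. It is the worm counterpart of the fly microRNA bantam, and its hairpin sits in an intron of Y67D8A.2. All other arms were below 7% in every library: miR-79-3p, an epidermal regulator of neuronal migration, held 5.34% and miR-2-3p, of an invertebrate family, 4.66%. Of the 473 arms listed, 7 carried 50% of the counts and 36 carried 90%. The 20 leading arms together held 77.7%, and 13 of them were 3p arms.

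**Figure D1:**
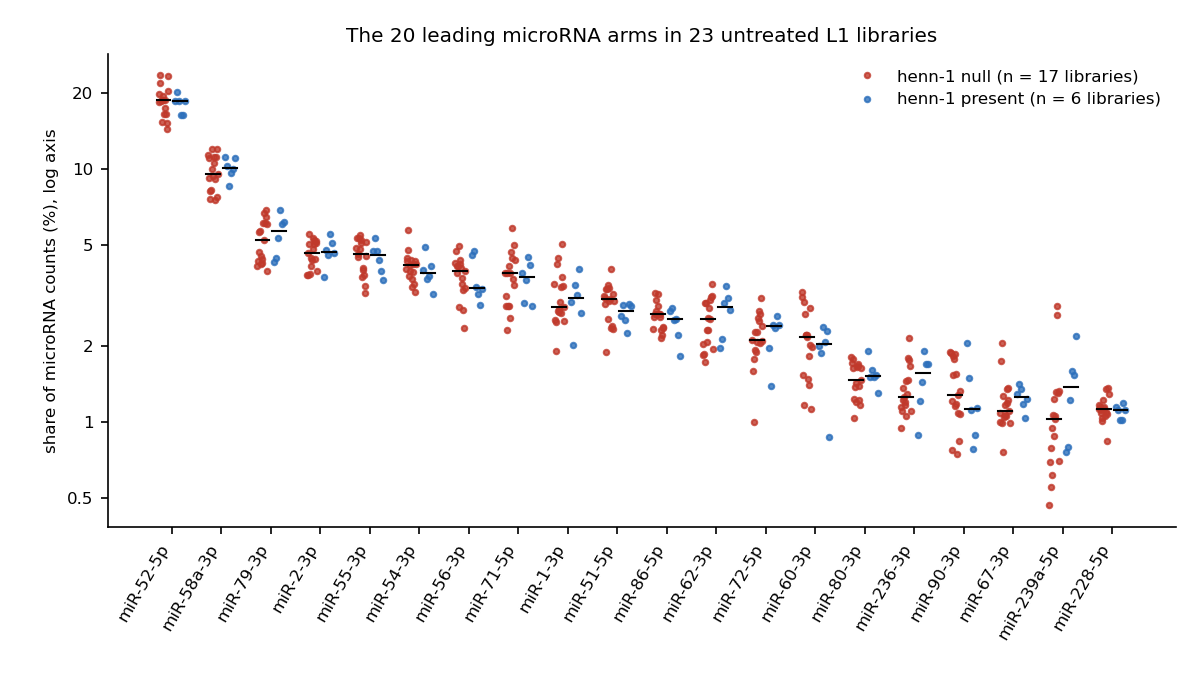
Share of worm microRNA counts (%, log axis) for the 20 leading arms, 1 point per untreated library, henn-1 null in red (n = 17) and henn-1 present in blue (n = 6), with a line at each median. Red and blue points overlap for each of the 20 arms, from miR-52-5p at 14.5% to 23.5% down to miR-228-5p at a mean of 1.12%.

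At the other end of the range, 463 of the 473 arms had at least 1 count in some untreated library and 348 had counts in all 23. A mean of at least 100 CPM was reached by 107 arms, 183 lay between 1 and 100 CPM, and 183 lay under 1 CPM. Among 92 hairpins with both arms listed and at least 100 CPM, the 3p arm was the more abundant in 61. The lesser arm made up a median of 0.747% of its hairpin, less than 1% in 58 hairpins and more than 10% in 6. miR-243, whose 3p arm is known to enter the RNA interference Argonaute RDE-1, was nearly even: miR-243-3p made up 47.0% of its hairpin on average, from 24.1% to 64.8% across libraries.

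Families and tissue groups divided the profile unevenly. The 6 leading arms of the miR-51 family summed to 34.5% ± 3.88 of the counts (SD, n = 23), from 26.9% to 40.4%. The miR-58 family summed to 13.1% ± 1.44, the miR-72 family to 3.64% and the miR-64 family to 3.25%. Arms known from muscle summed to 6.94% ± 0.684, and of these miR-1-3p, the conserved muscle microRNA, held 3.15%. Neuronal arms summed to 2.56% ± 0.227. They included miR-124-3p at 0.850%, a neuronal microRNA conserved in mammals, and lsy-6-3p, which acts in 1 of the ASE neurons, at 0.0103% or 103 CPM. Intestinal arms summed to 2.08% ± 0.634, nearly all of it miR-60-3p at 2.07%, and pharyngeal arms to 1.62%. Mirtrons, whose hairpins are spliced introns, summed to 2.58%, again mostly 1 arm, miR-62-3p at 2.57%.

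Arms of the heterochronic pathway, which times larval development, held a small share. The 6 timing microRNAs summed to 0.0280% of the counts. miR-84-5p, a let-7 relative, averaged 223 CPM and made up most of that sum. lin-4-5p, known to rise late in L1, averaged 26.8 CPM, and miR-48-5p averaged 19.5 CPM. let-7-5p itself, which acts at the change to the adult, averaged 2.01 CPM. Apart from lin-4-5p, these RNAs are known to accumulate mainly in later larvae than those labelled here.

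Spread between libraries was moderate for most abundant arms. Over the 107 arms with at least 100 CPM the median SD of log2 CPM was 0.333 over 23 libraries and 0.254 within genotypes, and in 35 of them the highest share was less than 2 times the lowest. miR-232-3p was among the steadiest, from 0.456% to 0.598%. The miR-35 family, which is laid down in embryos and needed for them, varied far more. Its 8 leading arms summed to 2.86% ± 1.62, with the lowest sum, 0.891%, in myo-3 henn-1(0) library 49407 and the highest, 7.55%, in elt-2 henn-1(0) library 36212. Both extremes were thus henn-1(0) libraries, and the 6 libraries with henn-1, at 1.71% to 5.13%, lay inside the henn-1(0) range.

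When all 17 henn-1(0) libraries were set against all 6 with henn-1, 1 of 318 arms tested passed an adjusted p of 0.05 (0.314% of arms; quasi-likelihood test of edgeR, adjusted by the Benjamini-Hochberg method). That arm was miR-8198-5p, a rare arm from the minus strand at IV:16214442-16214461, in a hairpin between protein-coding genes at IV:16214390-16214461 (WBcel235). No role is given for it here. In the libraries with henn-1 it stood at 2.56 and 1.58 CPM in wild type, 1.31 and 2.08 CPM in myo-3, and 2.93 and 1.72 CPM in ASE worms. In the 17 henn-1(0) libraries it ranged from 4.51 CPM (myo-3, library 49407) through a median of 8.35 to 17.1 CPM (rps-5, library 42751). Every henn-1(0) library was higher than every library with henn-1.

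The means were 9.10 CPM in henn-1(0) and 2.03 CPM in henn-1 worms, a log2 difference of 2.18 ± 0.245 (SE; 95% interval 1.67 to 2.68; adjusted p = 8.59e-07, edgeR). These levels rest on 63 to 355 counts per henn-1(0) library and 18 to 127 counts per library with henn-1. The fit takes libraries of the same genotype as independent. With counts summed per genotype the log2 difference was 2.08 (adjusted p = 0.000652, edgeR). No other tested arm had henn-1(0) libraries that were all higher (0.314% of arms), and none had henn-1(0) libraries that were all lower (0%). By driver, the mean of miR-8198-5p in henn-1(0) worms ran from 5.81 ± 1.84 CPM with myo-3 (SD, n = 2) to 12.3 ± 1.99 CPM with ASE (SD, n = 2) and 12.1 ± 4.94 CPM with rps-5 (SD, n = 3). The other 5 drivers had means of 7.60 to 9.08 CPM (n = 2 each).

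**Figure D2:**
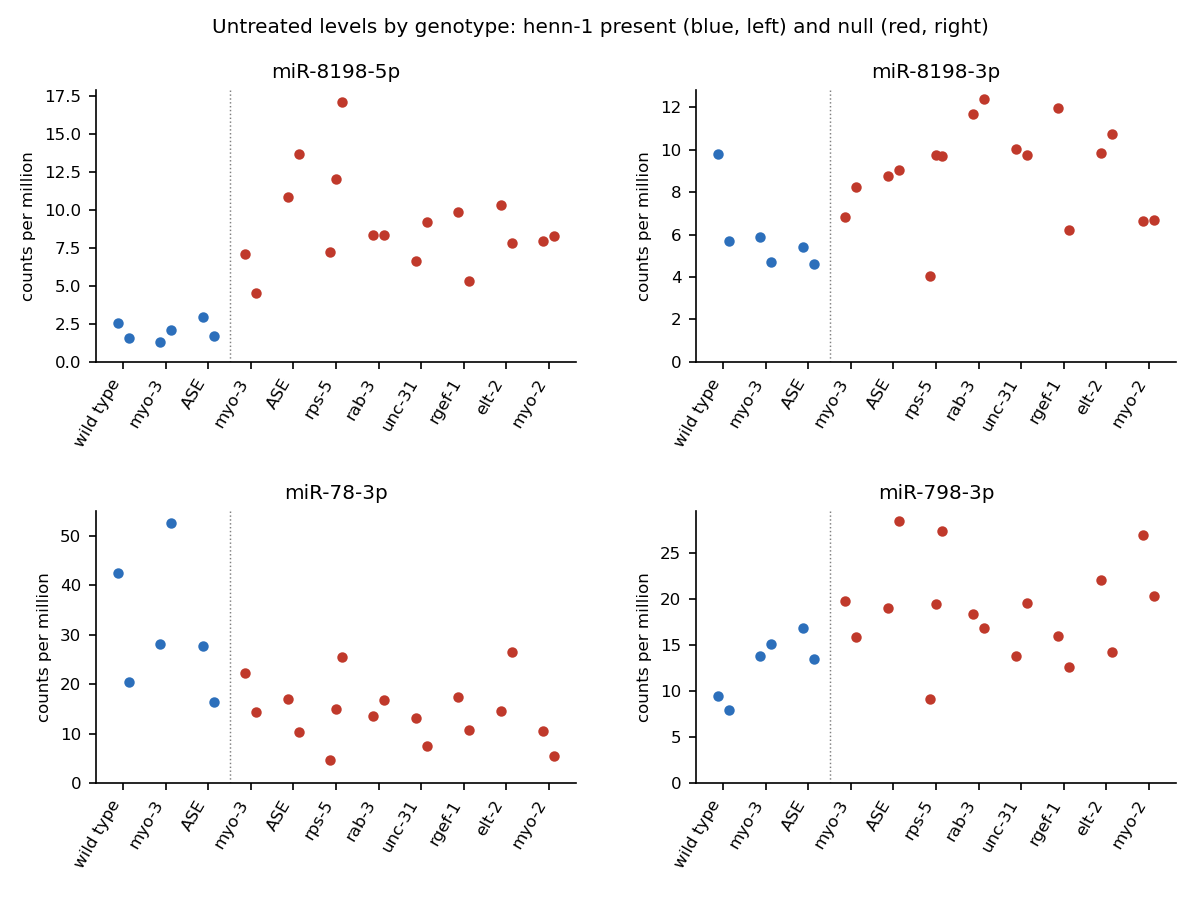
CPM of miR-8198-5p, miR-8198-3p, miR-78-3p and miR-798-3p in each untreated library by genotype, henn-1 present on the left (blue) and henn-1 null on the right (red). For miR-8198-5p the blue points lie at 1.31 to 2.93 and the red points at 4.51 to 17.1 without overlap, while the other 3 arms overlap between the groups.

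The other arm of the same hairpin, miR-8198-3p, moved less. It ranged from 4.07 to 12.4 CPM in henn-1(0) and from 4.60 to 9.78 CPM in henn-1 libraries, and the groups overlapped. Its log2 difference was 0.62 ± 0.208 (SE; adjusted p = 0.227, edgeR). The 5p arm therefore made up different shares of the hairpin: 35.4% to 64.0% with a median of 51.1% in henn-1(0) libraries, and 18.2% to 35.2% with a median of 24.5% in libraries with henn-1. This share was computed after the values had been seen and is given without a test. The nearest libraries of both groups, at 35.4% and 35.2%, almost touched.

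None of the 20 leading microRNAs passed the test in the comparison of all libraries. Over these arms no log2 difference exceeded 0.19 in size, and miR-52-5p stood at 0.08 (95% interval −0.16 to 0.31) and miR-58a-3p at −0.01 (−0.25 to 0.23). The 95% interval lay within a 2-fold change for all 20 of them and within a 1.5-fold change for 18. In the myo-3 and ASE drivers averaged, described below, the intervals were wider: the largest log2 difference of the 20 was 0.52 in size, 15 intervals lay within a 1.5-fold change, and 2 arms had an unadjusted p under 0.05. In the myo-3 worms alone the largest was 0.81, and 4 intervals lay within a 1.5-fold change. Of all 318 arms tested, 256 had an interval within a 2-fold change and 140 within a 1.5-fold change. The median over all tested arms was 0.03, and 26 arms had an unadjusted p under 0.05.

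miR-78-3p came next to a call in the other direction. It ranged from 4.64 to 26.5 CPM in henn-1(0) libraries (median 14.4) and from 16.3 to 52.5 CPM in libraries with henn-1 (median 27.9), and the groups overlapped. Its log2 difference was −1.06 ± 0.274 (SE; adjusted p = 0.0686, edgeR). It passed the threshold without rps-5 library 36208 (−1.02), rps-5 library 42751 (−1.18), elt-2 library 37020 (−1.21) or ASE library 40636 (−1.24), and with DESeq2 on all libraries (−1.07, adjusted p = 0.0285). miR-798-3p, at 18.8 against 12.8 CPM, had a log2 difference of 0.60 ± 0.202 (adjusted p = 0.227, edgeR).

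A pair of rare arms, chosen here after their values were seen, also lay near the threshold. miR-2219-3p averaged 0.691 CPM in henn-1(0) and 0.370 CPM in henn-1 libraries, a log2 difference of 0.91 (adjusted p = 0.0582, edgeR). It passed in turn without libraries 36208 (0.91), 42745 (0.93), 32796 (0.95), 49401 (0.98), 42747 (0.94) and 42749 (0.94). miR-8196a-5p averaged 10.2 against 4.91 CPM, a log2 difference of 1.11 (adjusted p = 0.0851, edgeR). It passed without libraries 42745 (1.16), 49401 (1.35) or 42749 (1.18), and with equal weight per genotype (1.18, adjusted p = 0.026, edgeR). With DESeq2 on all libraries both passed, miR-2219-3p at an adjusted p of 0.0389 and miR-8196a-5p at 0.014. With these arms, the number called over all arms was 1 to 3 when a library was left out.

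**Figure D3:**
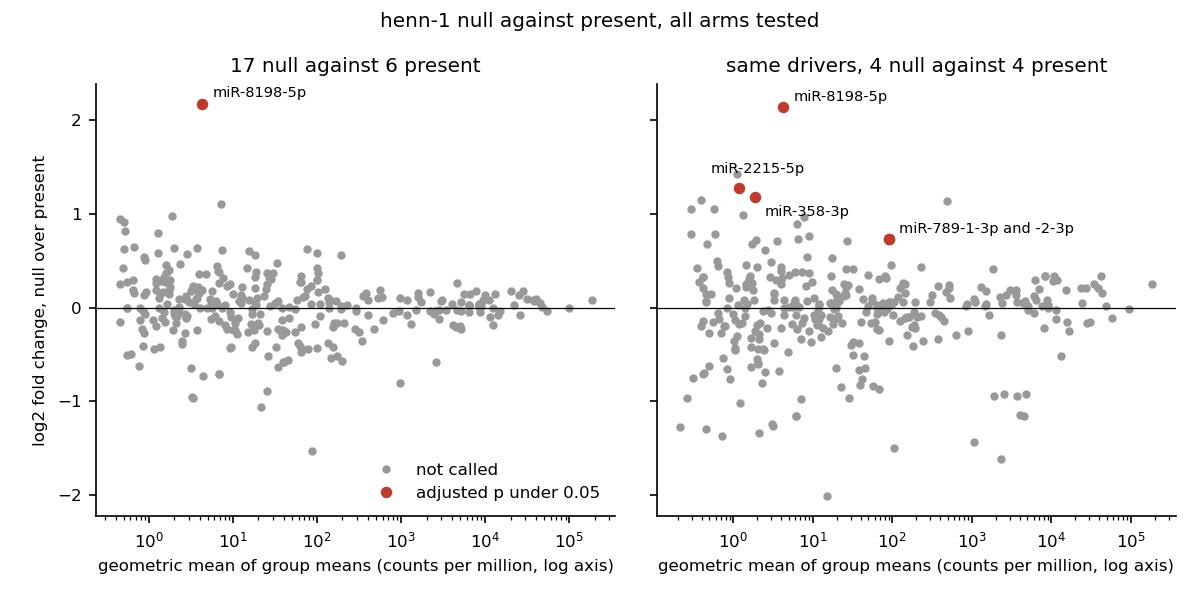
Log2 fold change of henn-1 null over present for each arm tested against the geometric mean of the 2 group means (CPM, log axis), in all libraries (left, 318 arms) and in the myo-3 and ASE drivers alone (right, 333 arms). Red points passed an adjusted p of 0.05 (edgeR): miR-8198-5p at 2.18 on the left, and 5 arms on the right, the 2 miR-789 copies plotted on top of each other.

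The comparison of all libraries mixes drivers, so the drivers studied both with and without henn-1 were also taken alone (4 henn-1(0) libraries against 4). Averaged over both drivers, 5 of 333 arms were higher in henn-1(0) worms and 0 were lower (1.5% of arms; edgeR, adjusted p under 0.05), and 36 arms had an unadjusted p under 0.05. miR-8198-5p stood at 7.11 and 4.51 CPM in myo-3 henn-1(0) worms against 1.31 and 2.08 CPM with henn-1. In ASE worms it stood at 10.9 and 13.7 CPM in henn-1(0) against 2.93 and 1.72 CPM with henn-1. All 4 henn-1(0) libraries were higher than all 4 with henn-1, by a log2 difference of 2.14 ± 0.301 (SE; adjusted p = 0.000727, edgeR). It passed the threshold under each of the 15 alternatives tried for this comparison.

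The other 4 called arms came from 3 kinds of hairpin. miR-789-1-3p (hairpin at IV:16740693-16740789, in an exon of Y51H4A.24) and miR-789-2-3p (hairpin at IV:17309307-17309403), both on the minus strand, are near-identical copies with nearly equal deposited counts, so they are read here as 1 measurement. miR-789-2-3p stood at 107 and 138 CPM in myo-3 henn-1(0) and 116 and 88.8 CPM in ASE henn-1(0) worms, against 89.8, 92.5, 57.0 and 53.4 CPM with henn-1. Over both drivers the groups overlapped, since the lowest ASE henn-1(0) library was below the myo-3 libraries with henn-1, and within each driver they did not. With 2 libraries against 2 this was common. Of 333 arms, 50 were higher and 84 lower without overlap in myo-3 worms, and 64 and 82 in ASE worms. The log2 difference was 0.73 ± 0.168 (SE; adjusted p = 0.0356, edgeR).

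miR-2215-5p and miR-358-3p, named here after their values were seen because both average under 5 CPM, completed the list. miR-2215-5p (II:13333806-13333827, minus strand) stood at 2.09, 1.22, 2.19 and 1.76 CPM in henn-1(0) worms against 0.873, 0.937, 0.670 and 0.657 CPM, a log2 difference of 1.28 ± 0.257 (adjusted p = 0.021, edgeR). miR-358-3p (V:8580880-8580901, minus strand, opposite symk-1) stood at 2.94, 3.00, 2.34 and 2.68 CPM against 1.45, 1.14, 1.48 and 0.960 CPM, a log2 difference of 1.18 ± 0.274 (adjusted p = 0.0356, edgeR). For both, the 4 henn-1(0) libraries were all higher, on 17 to 69 counts each. Groups without overlap were found for 7 arms that were higher (2.1%) and 14 that were lower (4.2%) in henn-1(0) worms.

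These 4 calls lay near the threshold, and fits with 1 library fewer often missed it. miR-358-3p lost its call without any 1 of the 8 libraries, with log2 differences of 1.00 to 1.26 (adjusted p 0.0706 to 0.236, edgeR). miR-2215-5p lost it without 49401, 49403, 49405, 40634, 40636 or 42747, at 1.02 to 1.32, and the miR-789 arms without 49401, 49403, 49407, 40634, 40636 or 42747, at 0.54 to 0.74. With the line number as a block, 1 arm was called, miR-8198-5p. In all 23 libraries miR-789-2-3p stood at a log2 difference of 0.29 ± 0.186 (adjusted p = 0.609, edgeR). With the driver as a term in that fit it stood at 0.71 (adjusted p = 0.0457, edgeR), and the arms called were the 5 named here. In such a fit the henn-1 difference comes from the myo-3 and ASE drivers, the only ones with both states, so it is not separate evidence.

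Within each driver the groups fell to 2 libraries against 2. In the ASE worms 1 of 333 arms was called (0.3%), miR-8198-5p at a log2 difference of 2.42 ± 0.417 (SE; adjusted p = 0.00815, edgeR). The call was lost without ASE library 40634 (2.74, adjusted p = 0.0611), 40636 (2.09, adjusted p = 0.452) or 42749 (2.22, adjusted p = 0.09), while the difference stayed above 2. In the myo-3 worms 0 of 333 arms were called (0%) by edgeR, 30 had an unadjusted p under 0.05, and DESeq2 called 1. miR-8198-5p stood at 1.86 ± 0.436 there (SE; adjusted p = 0.189 with edgeR and 0.0238 with DESeq2).

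The difference between the drivers was tested directly. For miR-8198-5p it was −0.56 on the log2 scale, myo-3 minus ASE (95% interval −1.81 to 0.69; adjusted p = 0.98, edgeR). Of 333 arms, 0 differed between the drivers (0%) by edgeR, 16 had an unadjusted p under 0.05, and DESeq2 called 0. Library numbers lay together for the myo-3 strains (49401 to 49407) and apart for the ASE strains (40634 and 40636 with henn-1, 42747 and 42749 without), so in the ASE worms henn-1 and the run of numbers cannot be told apart.

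A further set of libraries was grouped here by number (32793 to 34092): the rab-3 and unc-31 henn-1(0) worms, with 4 libraries, and wild type worms, with 2. The labels give no such grouping. Wild type library 34092 lies well apart from the others, which run from 32793 to 32951, so the set is only partly matched by number. The wild type also lacks the plant enzyme, so enzyme and henn-1 cannot be told apart here. In this comparison 1 of 333 arms was called (0.3%), miR-8198-5p again, at 8.35, 8.37, 6.61 and 9.24 CPM against 2.56 and 1.58 CPM in wild type. All 4 were higher, by a log2 difference of 2.04 ± 0.381 (SE; adjusted p = 0.0198, edgeR). Groups without overlap were found here for 17 arms that were higher and 13 that were lower, of 333. The call was lost without wild type library 32793 (2.28) or 34092 (1.76), rab-3 library 32795 (1.99) or 32796 (2.04), or unc-31 library 32951 (1.93). In a fit of all 23 libraries with the run of numbers as a term, miR-8198-5p stood at 1.94 (adjusted p = 6.63e-05, edgeR). Only the run compared here and that of the myo-3 libraries hold both henn-1 states. The henn-1 difference of that fit comes from them, so it is not separate evidence.

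The arms called only in the averaged myo-3 and ASE comparison had other values in these libraries. miR-2215-5p stood at 1.57 and 1.58 CPM in wild type and at 1.53, 2.03, 1.19 and 1.01 CPM in rab-3 and unc-31 worms, a log2 difference of −0.09. miR-358-3p stood at a log2 difference of −0.03. miR-789-2-3p was at 127 and 125 CPM in wild type, within the range of 66.0 to 161 CPM in all henn-1(0) libraries, with a log2 difference of −0.20. In wild type worms, which have henn-1, these 3 arms stood above all 4 myo-3 and ASE libraries with henn-1. Whether this comparison differs from the averaged myo-3 and ASE one was not tested for these arms.

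**Figure D4:**
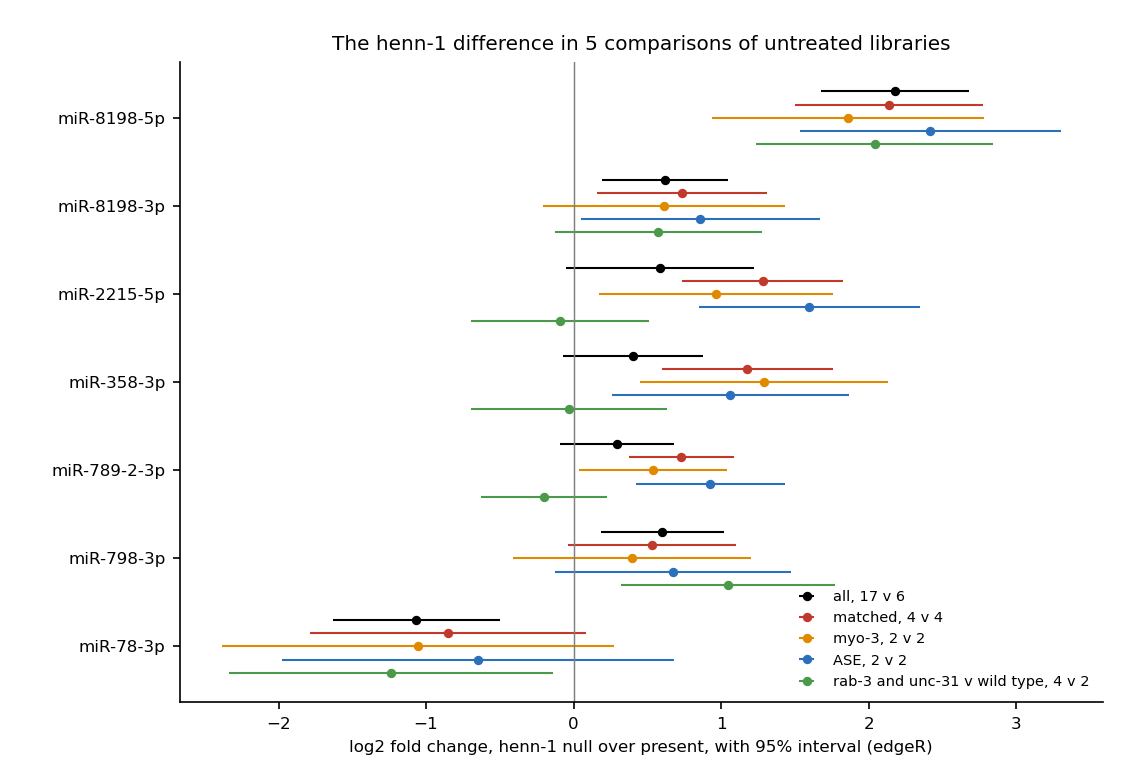
Log2 fold change of henn-1 null over present with 95% intervals (edgeR) for 7 arms in 5 comparisons of untreated libraries. The 5 intervals of miR-8198-5p all lie above 0, with differences of 1.86 to 2.42, whereas miR-2215-5p, miR-358-3p and miR-789-2-3p lie above 0 in the averaged myo-3 and ASE comparison and near 0 in that of rab-3 and unc-31 with wild type.

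By groups, henn-1(0) and henn-1 libraries differed for few listed arms. Of 8 arms listed because they had withstood oxidation in wild type worms of these same data, 1 rose in the comparison of all libraries (miR-8198-5p), 0 fell and 7 did not pass, where 0.314% of all arms were called. The median log2 difference was 0.30 against 0.03 over all arms. In the averaged myo-3 and ASE comparison 2 of the 8 rose (miR-8198-5p and miR-789-2-3p), where 1.5% of all arms were called, and the median was 0.46 against 0.01 over all arms. The list was chosen on these data, so it is no independent evidence of a direction. miR-62-3p, the mirtron in the list, stood at −0.08 ± 0.134, and miR-243-3p at 0.04 ± 0.243, in all libraries.

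No arm of the timing, miR-35, neuronal, muscle, pharyngeal, intestinal, epidermal, seam or glial, miR-51, miR-58, miR-64, miR-72 or mirtron lists passed in either of these comparisons. In all libraries the medians of these lists ran from −0.19 for the miR-35 family to 0.18 for the timing arms. All 6 miR-51 family arms had positive log2 differences, of 0.03 to 0.18. Among the neuronal arms 7 of 10 were positive, and miR-124-3p stood at −0.04 ± 0.173 and lsy-6-3p at 0.16 ± 0.148. The muscle arm miR-1-3p stood at 0.09 ± 0.147, and the intestinal miR-60-3p was at 0.18 ± 0.208.

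The miR-35 family had the largest list median in the averaged myo-3 and ASE comparison, −0.94, with all 8 arms negative and 0 called. Its summed share was 3.72% and 0.891% in myo-3 henn-1(0) worms against 2.69% and 5.13% with henn-1, which overlapped. In ASE worms it was 1.68% and 1.14% against 4.27% and 2.86%, which did not overlap. Among single arms, 82 of 333 were likewise lower without overlap in ASE henn-1(0) worms. In the rab-3 and unc-31 worms against wild type the median was −0.11. When the 4 ASE libraries were fitted alone, 4 of 328 arms were higher and 7 lower in henn-1(0). All 7 lower arms came from hairpins of the miR-35 family, among them miR-35-3p, miR-36-3p, miR-38-3p and miR-41-3p. That fit takes its spread from 2 libraries per group. The ASE contrast within the fit of all genotypes called none of these lower arms, only miR-8198-5p.

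Some of the arms above coincide with piRNA loci. Of 422 arms placed on WBcel235, 4 overlap an annotated piRNA on the same strand. The 5p arm of miR-8198 shares 18 bases with 21ur-5102, and its 3p arm shares 20 with 21ur-5348 and 18 with 21ur-6991. miR-78-3p (IV:15165707-15165727, plus strand) shares 20 bases with 21ur-9780 and 18 with 21ur-10414, and the neuronal miR-790-5p shares 21 with 21ur-1430. Counts of such an arm and of its piRNA cannot be told apart in these tables. Within the 4 arms the direction was mixed: miR-8198-5p was called higher, miR-8198-3p stood at 0.62, miR-78-3p at −1.06 and miR-790-5p at −0.23 (adjusted p = 0.715, edgeR).

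Several of the hairpins named above lie in surroundings rich in piRNA loci. Within 100 kb on either side lie 614 piRNA loci for miR-8198, 721 for miR-78, 680 for miR-798, 606 for miR-789-1 and 116 for miR-789-2, against a median of 2 over 240 placed hairpins. Only 17 hairpins have 100 or more. miR-52, the most abundant microRNA, has 591. Of all 15363 annotated piRNA loci, 95.8% are on chromosome IV. The hairpins counted here are a selection of those named. The called arms of miR-2215 and miR-358 lie on chromosomes II and V, and no count is given for their surroundings. The selection therefore does not show that the called arms as a set lie near piRNA loci.

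The same arms were then read in the oxidised libraries. For 32 of the 318 arms (10.1%) all 6 oxidised libraries with henn-1 were higher than all 17 oxidised henn-1(0) libraries. miR-8198-5p was 1 of them, at 145 to 1496 CPM with henn-1 and 0 to 32.2 CPM in henn-1(0), so its order there was the reverse of the untreated one. miR-78-3p stood at 1381 to 10942 CPM against 0 to 11.9 CPM, and miR-789-2-3p at 3973 to 32140 CPM against 68.3 to 2410 CPM. The oxidised groups also differ in drivers, of which only myo-3 and ASE occur in both. Their totals differ too, at 425711 to 1444791 worm microRNA counts with henn-1 and 1011043 to 35253784 in henn-1(0). A share of such totals depends on what else survived, and the part of henn-1 in this order was not tested.

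The low arms miR-2215-5p, at 7.03 to 187 CPM against 0 to 4.44 CPM, and miR-358-3p, at 7.91 to 175 CPM against 0 to 4.17 CPM, followed the same order after oxidation. All 5 arms called in the averaged myo-3 and ASE comparison of untreated libraries were thus among the 32 arms, of 333 tested there (9.61%). Before oxidation the directions of the 32 arms were mixed: 18 had a positive log2 difference in all untreated libraries, with a median of 0.06, against 171 of 318 arms and a median of 0.03. This overlap was looked for after the calls were known and is given without a test. An oxidised share is also taken from a library whose other microRNAs have been depleted, so it is not a level in the worm.

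**Figure D5:**
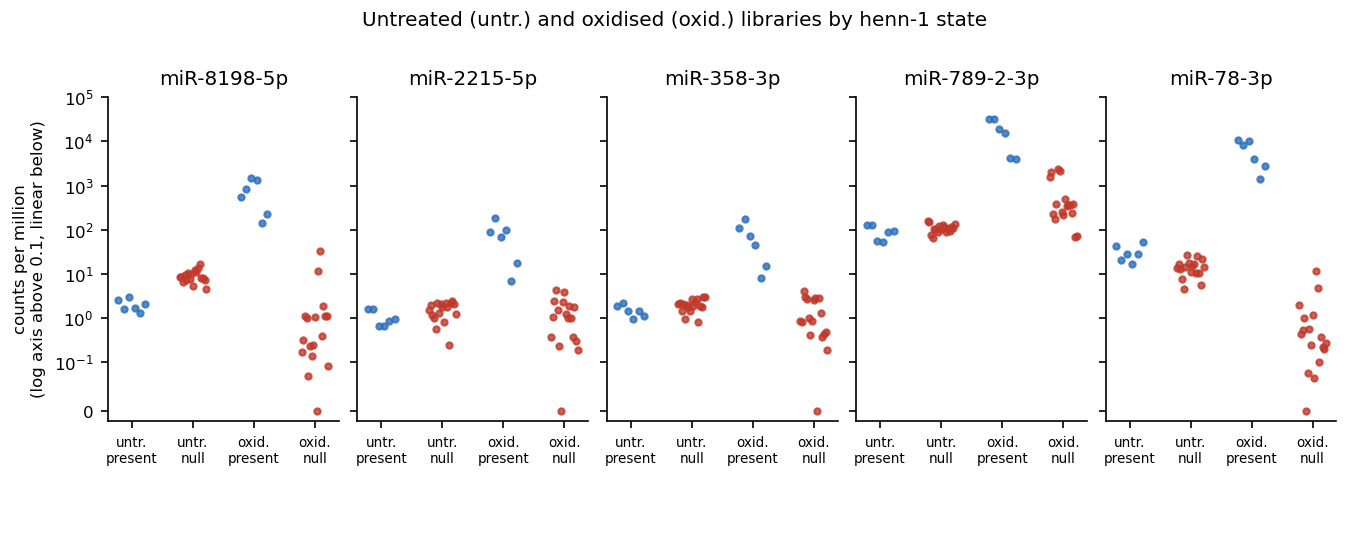
CPM (log axis above 0.1, linear below) of 5 arms in untreated and oxidised libraries, henn-1 present in blue (n = 6) and null in red (n = 17). miR-8198-5p is higher in the null group untreated (4.51 to 17.1 against 1.31 to 2.93) and lower in it after oxidation (0 to 32.2 against 145 to 1496).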

How the data were processed

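Total RNA of whole L1 worms was sequenced as small RNA of 18 to 30 nt, per the labels' protocols. For each library the authors deposited a table of expected counts (estimated counts that need not be whole) with 916 entries, of which 473 are worm microRNA arms and the other 443 were 0 throughout. Per the submitters' processing notes, cutadapt 1.2.1, HTSeq 0.6.1p1 and WBcel235 were used; no source used here names the aligner. Fractional values, as arise when reads are split between copies, held up to 7.75% of an untreated library.

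After rounding to whole numbers, arms were compared in R 4.3.3 with edgeR 4.0.16 and limma 3.58.1: TMM factors, a filter with a minimum count of 10, robust quasi-likelihood F tests and Benjamini-Hochberg adjustment over all arms tested, called at 0.05. Null against present was fitted over 17 and 6 libraries without covariates; the other comparisons were contrasts of a fit with 1 coefficient for each of 11 genotypes. The procedure was tested on simulated counts, drawn independently for each library. They held no driver or strain effects, so such effects were not covered. The libraries are biological replicates per the series' design text. Both wild type libraries come from N2, and 2 of the 3 rps-5 libraries come from the same strain, so their worms may share more than the test assumes. No 2 libraries were identical. Alternatives were other scalings, no filter, DESeq2 1.42.0, fewer libraries, covariates, a line-number block, and each library left out.

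Arm coordinates and piRNA loci are from the Ensembl annotation of WBcel235; 240 of 242 hairpins were placed by name. Arms named were the 20 leading ones, called arms of at least 5 CPM, the 5 most and 5 least variable of at least 100 CPM, and list members; others are said to have been chosen after their values were seen. The arms and lists were chosen with earlier results of these data known. Line numbers were matched as 5 and 9 for ASE, where the labels share them, and as 2 with 2.2 and 11 with 11.16 for myo-3, which is inferred. They were not treated as pairs in the tests reported, because matched libraries did not deviate together (correlation over 290 arms −0.11 for ASE and −0.51 for myo-3). Arms are not independent, and with 2 libraries per group this cannot show that pairing has no effect.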

Additional observations from a re-analysis of the deposited data

Results flagged for a closer look

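In 40 groups of 4 to 6 untreated libraries, for the arms described above, 2 had a library far from the others by Dixon's test; chance alone gives about 1 in 20. miR-8198-3p stood at 9.78 CPM in wild type library 32793, against 4.60 to 5.89 CPM in the other 5 libraries with henn-1 (ratio 0.672, n = 6). Without that library its log2 difference between all henn-1(0) and henn-1 libraries was 0.75 in place of 0.62, and it did not pass (adjusted p = 0.139, edgeR). miR-358-3p stood at 1.42 CPM in unc-31 library 32950, against 2.07 to 2.22 CPM in the other 3 rab-3 and unc-31 libraries (ratio 0.846, n = 4). Without it, the log2 difference from wild type was 0.10 in place of −0.03.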

How the results depend on the processing

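miR-8198-5p was called under all 35 alternatives of the comparison of all libraries, at log2 differences of 1.94 to 2.26 (adjusted p 5.05e-19 to 0.000652). The number of arms called there, 1, became 4 with DESeq2 (3 higher, 1 lower), 5 with the driver as a term (the arms of the averaged comparison), and 2 with equal weight per genotype, without the myo-3 libraries or without the rps-5 libraries; it was 1 to 3 with a library left out. In the averaged myo-3 and ASE comparison, 5 became 1 with library totals, 2 without a filter, 3 with only those libraries, 1 with the replicate block and 2 with the numbers crossed in the block; it was 1 to 4 with a library left out. Within ASE, 1 became 5 with DESeq2 and 11 with only those libraries (4 higher, 7 lower), stayed 1 with the block or the crossed block, and was 0 to 1 with a library left out. Within myo-3, 0 became 1 with DESeq2 and was 0 with the block, the crossed block, or any library left out. The rab-3 and unc-31 comparison gave 0 to 1 with a library left out, and the difference between drivers 0 under all 12 alternatives. The replicate block and its crossed form, the latter chosen after seeing the data, changed no other call. No called difference changed sign; the cause of the changes was not tested. miR-52-5p led at 18.6% to 19.4% under the 3 other averages. Few libraries per group limit the precision: 221 of 333 intervals in the averaged comparison lay within a 2-fold change.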

Other observations

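Beside the miR-35 family, the arms of at least 100 CPM that varied most between libraries included miR-360-5p and miR-239b-5p. miR-360-5p held 0.000662% of the counts in rps-5 library 36208 and 0.172% in ASE henn-1(0) library 42749, a 259-fold range. Its 2 rps-5 libraries of strain MLC558 stood at 0.000662% and 0.00410% and the library of MLC557 at 0.0417%, and the myo-3 henn-1(0) strains stood at 0.0526% and 0.00563%. Its log2 difference between all henn-1(0) and henn-1 libraries was −0.04 ± 0.768 (SE; adjusted p = 0.995, edgeR). The 6 libraries with henn-1 lay at 0.00849% to 0.0634%, and henn-1(0) libraries lay both below and above that range. miR-239b-5p, of a family known from stress responses, ranged 28.1-fold, from 0.0129% in rab-3 library 32795 to 0.362% in myo-3 library 49403, which has henn-1. The myo-3 and ASE libraries with henn-1 lay at 0.114% to 0.362%, and both wild type libraries, at 0.0426% and 0.0306%, lay below them. Its log2 difference was −0.80 ± 0.516 (SE; adjusted p = 0.609, edgeR). miR-239a-5p, its more abundant relative, ranged from 0.468% to 2.86% with a log2 difference of −0.19 ± 0.310 (adjusted p = 0.892, edgeR).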
